A study of Homo sapiens with 12 samples.

Results

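A set of 57 genes of mitosis and the G2/M transition was followed across 12 RNA-seq libraries of Ewing sarcoma cells, a bone and soft tissue tumour of the young that is driven in most cases by the EWS-FLI1 fusion. The members were found by gene symbol in the table of raw counts, and all 57 of them were among its 20771 genes. They comprised 13 spindle motors, 7 genes of mitotic entry, 3 mitotic kinases, 3 subunits of the chromosomal passenger complex, 3 spindle checkpoint genes, 5 kinetochore and centromere genes, 5 anaphase genes, 8 spindle assembly genes, 4 cytokinesis genes, 2 transcription factors, 2 genes of chromosome structure and 2 others. Their symbols were chosen from knowledge of these roles and with earlier results of the same libraries in view.

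The libraries came from the lines EW8-RRM1-KO and TC71-RRM1-KO, with 3 libraries at each of the labelled times, 0 h and 48 h, in either line. In both lines and at both times the cells carried a lentiviral, codon-optimized RRM1 transgene under a doxycycline-inducible promoter, and the endogenous RRM1 gene had been knocked out with CRISPR/Cas9. This gene encodes the large catalytic subunit of ribonucleotide reductase. The 0 h cells were grown with doxycycline and the 48 h cells had been without it for 48 h, so that loss of the transgene, absence of the drug and time in culture cannot be told apart. Each line had been cloned from single cells, the labels do not say that the replicates were separate cultures, and p-values therefore measure the spread between these libraries, which may be technical.

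Mitosis begins when cyclin B and CDK1 are switched on by the CDC25 phosphatases, after which kinesin motors build a bipolar spindle and kinetochores tie each chromosome to its microtubules. The spindle checkpoint holds the cell in metaphase by restraining CDC20, the activator of the anaphase-promoting complex, until every kinetochore is attached; the complex then marks securin (PTTG1) and cyclin B for destruction, separase cuts cohesin and the cell divides. Most of these genes are transcribed late in the cycle, through promoters that bear CCAAT boxes, bound by NF-Y, and a cell cycle homology region, bound by the MuvB core of the DREAM complex, with B-MYB (MYBL2) and FOXM1 acting through MuvB.

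Promoters were examined because these elements are known from many genes of this kind, and 10 are shown, from 5 members that fell in both lines and 5 that rose in both. These were chosen with the responses known, and PSRC1, which fell more than PLK1 in both lines, is not among them. Each is the 120 bases before the annotated start in RefSeq on GRCh38.p14, written along the gene's own strand, with matches to CCAAT or its reverse complement ATTGG and to the homology region (TTTGAA on either strand, or TTCGAA) in capitals. The members that fell were CDC20 (chr1:43358861-43358980, plus strand), PTTG1 (chr5:160421735-160421854, plus strand), PIF1 (chr15:64825648-64825767, minus strand), SAPCD2 (chr9:137070558-137070677, minus strand) and PLK1 (chr16:23678769-23678888, plus strand).
CDC20: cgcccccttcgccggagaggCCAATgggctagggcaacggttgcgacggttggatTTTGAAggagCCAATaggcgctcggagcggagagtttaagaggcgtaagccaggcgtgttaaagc
PTTG1: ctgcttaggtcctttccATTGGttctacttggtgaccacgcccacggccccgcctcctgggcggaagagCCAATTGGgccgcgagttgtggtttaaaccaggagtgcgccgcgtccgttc
PIF1: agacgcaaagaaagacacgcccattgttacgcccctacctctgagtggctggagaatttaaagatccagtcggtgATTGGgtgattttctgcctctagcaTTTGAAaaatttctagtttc
SAPCD2: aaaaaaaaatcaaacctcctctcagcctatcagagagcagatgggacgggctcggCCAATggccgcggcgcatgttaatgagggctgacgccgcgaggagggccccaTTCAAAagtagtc
PLK1: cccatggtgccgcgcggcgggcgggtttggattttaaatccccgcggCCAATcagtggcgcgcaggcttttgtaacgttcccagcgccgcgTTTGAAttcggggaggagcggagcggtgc

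The members that rose were KIF18A (chr11:28108157-28108276, minus strand), KIF2C (chr1:44739717-44739836, plus strand), KIF20B (chr10:89701470-89701589, plus strand), SGO1 (chr3:20186207-20186326, minus strand) and CDC25C (chr5:138338356-138338475, minus strand).
KIF18A: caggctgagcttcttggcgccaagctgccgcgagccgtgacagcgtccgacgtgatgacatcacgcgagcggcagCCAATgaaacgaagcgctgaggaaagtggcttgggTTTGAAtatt
KIF2C: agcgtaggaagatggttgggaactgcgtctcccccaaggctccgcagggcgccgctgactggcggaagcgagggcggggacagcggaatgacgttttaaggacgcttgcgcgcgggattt
KIF20B: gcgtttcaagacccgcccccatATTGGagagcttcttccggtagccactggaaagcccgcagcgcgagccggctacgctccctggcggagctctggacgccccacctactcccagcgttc
SGO1: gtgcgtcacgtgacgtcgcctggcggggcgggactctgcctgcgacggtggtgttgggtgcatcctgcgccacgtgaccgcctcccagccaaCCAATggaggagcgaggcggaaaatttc
CDC25C: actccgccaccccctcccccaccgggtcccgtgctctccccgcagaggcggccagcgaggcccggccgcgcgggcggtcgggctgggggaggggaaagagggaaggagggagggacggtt

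Each of the 5 promoters of genes that fell held at least 1 CCAAT match in these bases, and in PTTG1 the words CCAAT and ATTGG overlapped in 1 run. The homology region was matched in the same bases of CDC20, PIF1, SAPCD2 and PLK1. Among the 5 genes that rose, KIF18A held both words, KIF20B and SGO1 held a CCAAT match alone, and KIF2C and CDC25C held neither. The printed bases end at the start, so homology matches after it in KIF20B and across it in SGO1 do not show here. A match is a description of the letters in the window, not a site of binding. Only 1 annotated start was used per gene, so a missing match, as in CDC25C, says nothing of other starts of that gene.

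No library pair looked like a duplicate: counts within a group differed by 2.05 to 9.48 chi-square units per gene, the highest (7.83 and 9.48) for the pairs of TC71 at 48 h with replicate 3. Library totals ran from 18468485 to 35698991 counts, the members took 0.733 to 0.820% of them, and the lowest count of any member in any library was 49. The native RRM1 gene was counted at 9.37, 9.51 and 9.67 CPM (library-size-scaled counts, with TMM factors) in EW8 at 0 h and at 63.9, 72.6 and 74.1 CPM at 48 h. In TC71 it stood at 15.7, 15.5 and 17.3 CPM at 0 h and at 25.7, 26.4 and 24.1 CPM at 48 h. RRM1 was thus higher in the libraries labelled 48 h in both lines, with no overlap of the groups. The log2 fold change was 2.88 ± 0.07 in EW8 (adjusted p = 3.37e-27) and, for TC71, 0.65 ± 0.07 (adjusted p = 2.91e-09). Whether reads of the recoded transgene were counted at this gene was not tested, so these values do not check the labels, on which every direction below rests. For the marker genes alone, CPM were computed on raw library totals, without TMM factors, and so are not on the scale of the other CPM. Of the Ewing sarcoma markers, all 10 were in the table, with CD99 at 236 to 315 CPM in EW8 and 314 to 333 CPM in TC71 and with CCK at most at 2.82 CPM. The leukocyte marker PTPRC did not exceed 0.203 CPM and the epithelial marker EPCAM did not exceed 1.68 CPM. The markers CD3E, KRT5, PECAM1, VWF and HBB were looked for and were not among the genes of the count table.

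In EW8, 4 of 5 anaphase genes fell at 48 h, while 6 of 13 spindle motors rose. Of the 57 members, 31 fell and 18 rose at an adjusted p below 0.05, where 31.6% of all 16515 genes tested fell and 37.0% rose (68.6% in either direction), and 8 did not pass. The groups did not overlap for 31 members lower and 17 higher at 48 h, against 33.2% and 37.9% of genes tested. Their median log2 fold change was -0.16, against 0.03 over all genes tested, and single members ranged from -2.23 (PIF1) to 1.41 (KIF18A). Past a 2-fold change, 5 members fell (CDC20, PTTG1, PSRC1, PIF1 and SAPCD2) and 2 rose (KIF18A and CENPE); 3.35% of genes tested fell and 13.9% rose by that much. In these bulk libraries, fewer cells in mitosis and less RNA per cell cannot be told apart. With scaling by total counts alone, 28 fell and 21 rose, the median of all genes moved by 0.13 in EW8 and that of the members to -0.03.

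In TC71 the changes ran over a smaller range, from -1.29 (PIF1) to 0.51 (SGO1). Here 25 members fell and 21 rose, where 19.2% of genes tested fell and 22.9% rose (42.1% in either direction), and the groups did not overlap for 29 lower and 23 higher members, against 23.7% and 25.9%. The median was -0.06 against -0.00 over all genes tested. With scaling by total counts alone, 23 fell and 25 rose. Past a 2-fold change, 4 members fell (CDC20, PTTG1, PSRC1 and PIF1), against 0.854% of genes tested, and 0 rose, against 3.26%. The plot of responses by role sets the lines side by side for every member.

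**Figure D1:**
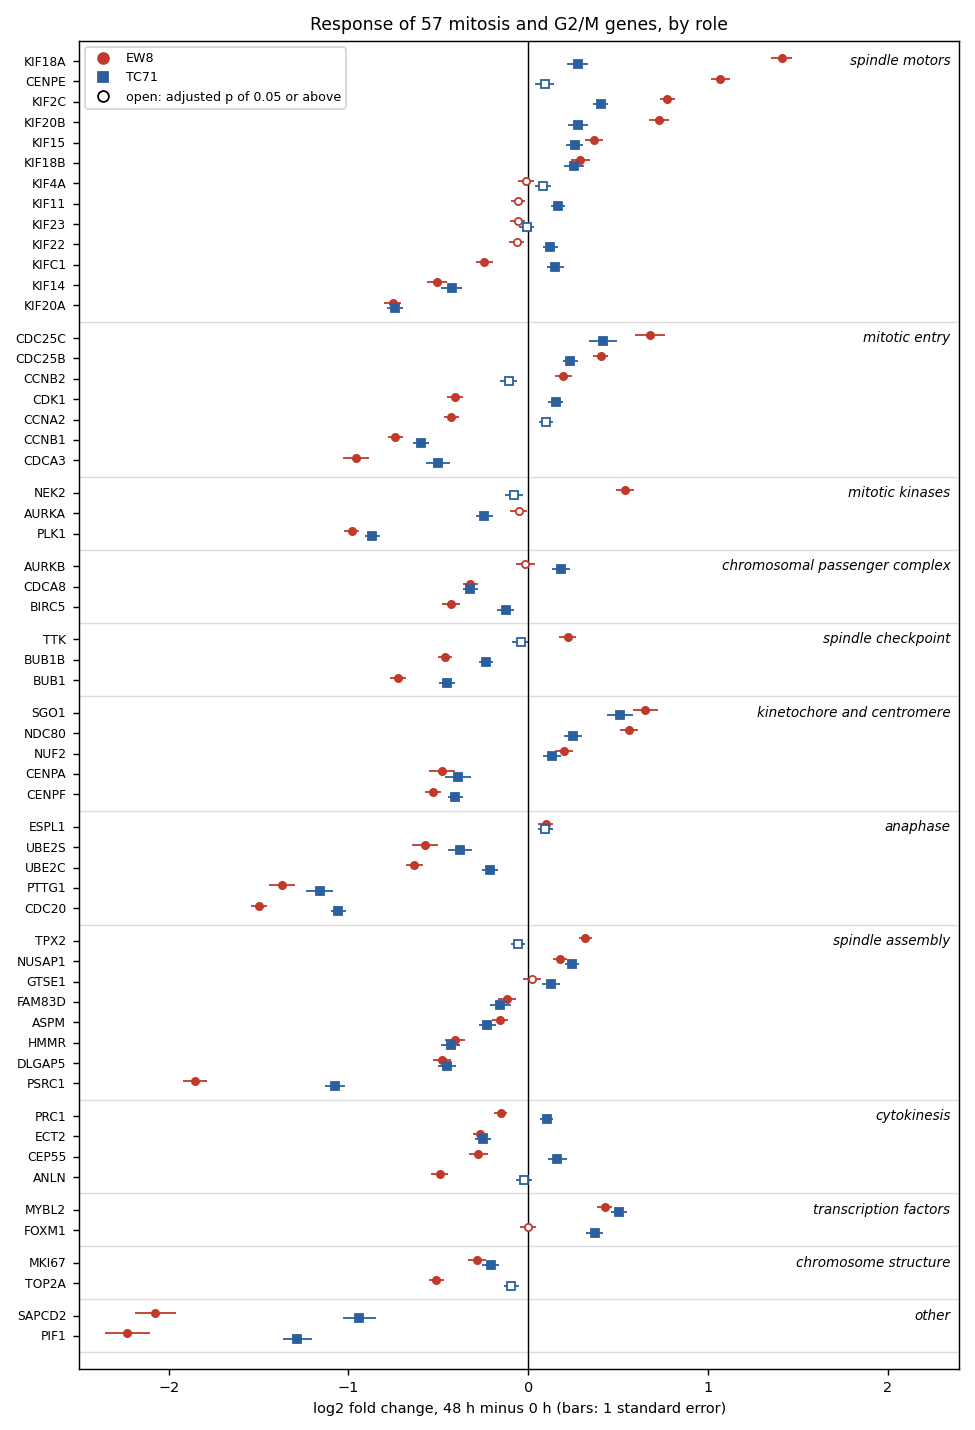
Each row is a member, grouped by role, and the x axis gives its log2 fold change at 48 h against 0 h in EW8 (circles) and TC71 (squares), with bars of 1 standard error; open symbols mark an adjusted p of 0.05 or above. Anaphase genes other than ESPL1 lie left of 0 in both lines, while KIF18A and CENPE stand far to the right in EW8 alone, at 1.41 and 1.07 against 0.28 and 0.09 in TC71.

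Between the lines, 24 members fell in both and 12 rose in both, while 4 fell in EW8 and rose in TC71; the corresponding shares of all genes tested were 14.3%, 17.6% and 1.60%. No member rose in EW8 and fell in TC71, as 1.22% of genes tested did. A call in EW8 alone was made for 6 that rose (18.2% of genes tested) and 3 that fell (15.7%), and in TC71 alone for 5 that rose (3.69%) and 1 that fell (3.72%), while 2 were called in neither (24.0%). Across the 57 members the responses of the lines had a Pearson r of 0.871 and a Spearman rho of 0.847, and across all genes tested 0.695 and 0.632; these correlations are across genes, which are not independent, and rest on libraries scaled together. Among the 24 members that fell in both, the fitted fall was larger in EW8 in 21, and the difference between the lines passed its own test in 9; over all genes that fell in both, these shares were 87.4% and 57.3%. Among the 12 that rose in both, the rise was larger in EW8 in 10, and the difference passed in 5, against 86.7% and 61.9% of all genes that rose in both.

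**Figure D2:**
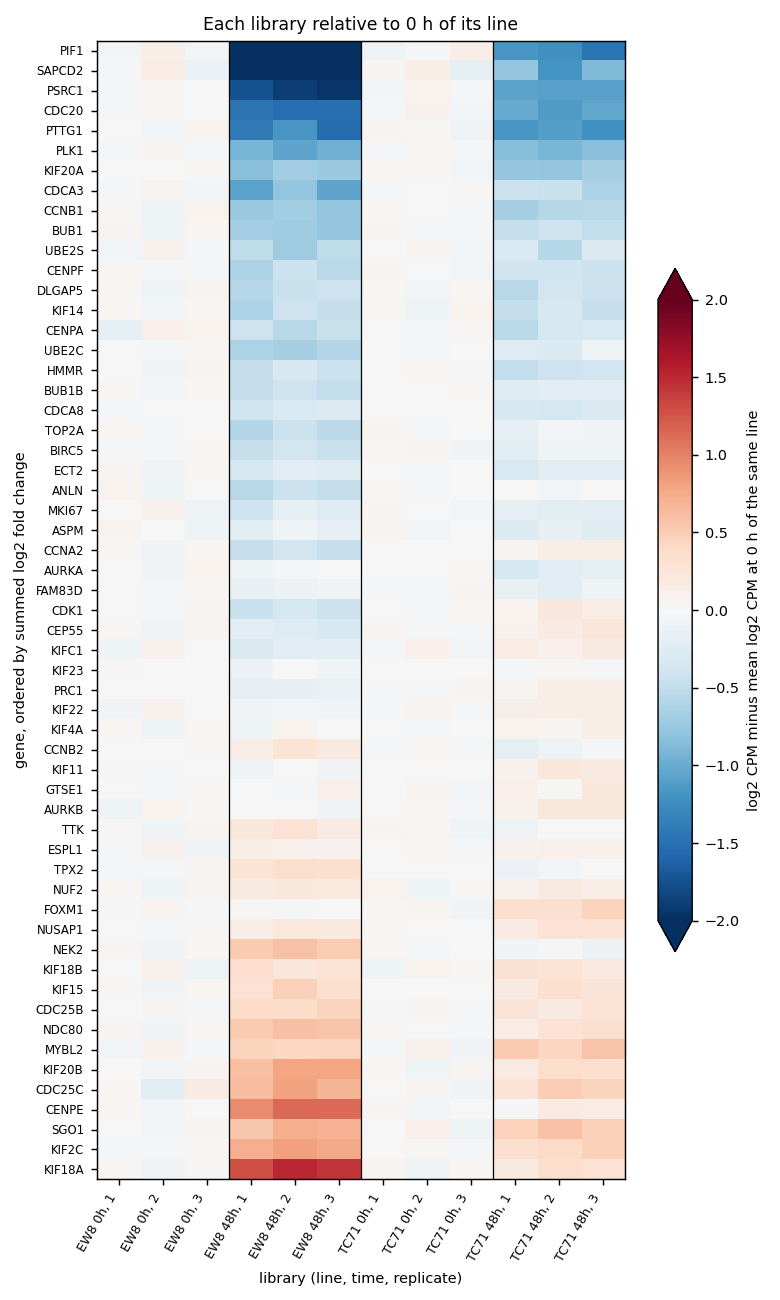
Rows are the 57 members, ordered by the sum of both log2 fold changes, and columns are the 12 libraries; colour gives log2 CPM minus the mean log2 CPM of the same line at 0 h, with the scale ending at 2 in each direction. The top rows (PIF1, SAPCD2, PSRC1, CDC20 and PTTG1) are lower in each 48 h library of both lines, and the bottom rows (KIF18A, KIF2C, SGO1 and CENPE) are higher in each EW8 library at 48 h.

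Of the 5 anaphase genes 4 fell in each line, where 31.6% of all genes tested fell in EW8 and 19.2% in TC71. Their median log2 fold changes, -0.63 in EW8 and -0.38 in TC71, were the lowest of the roles with more than 2 members. CDC20 (chr1:43358981-43363203, plus strand, 11 exons), which carries substrates to the anaphase-promoting complex, stood at 287, 300 and 292 CPM in EW8 at 0 h and at 105, 102 and 103 CPM at 48 h. In TC71 it went from 336, 363 and 331 CPM to 171, 157 and 168 CPM. The groups did not overlap in either line. CDC20 fell 2.83-fold in EW8 (log2 -1.5 ± 0.04 SE, adjusted p = 2.78e-25) and 2.08-fold in TC71 (log2 -1.06 ± 0.04, adjusted p = 2.00e-20). EW8 had the larger fall (difference -0.44 ± 0.06, adjusted p = 1.68e-07). PTTG1 (chr5:160421855-160428739, plus strand, 6 exons) encodes securin, the inhibitor that anaphase removes from separase. Its levels were 41.6, 40.2 and 43.8 CPM in EW8 at 0 h against 15.6, 18.7 and 14.4 CPM at 48 h, and 29.6, 28.9 and 27.2 CPM in TC71 at 0 h against 12.7, 13.3 and 12.4 CPM at 48 h. Securin fell 2.58-fold in EW8 and 2.24-fold in TC71, and the difference between the lines did not pass (-0.21 ± 0.11, adjusted p = 0.102). It passed without EW8 48 h replicate 2 (-0.33, adjusted p = 0.0111) or EW8 0 h replicate 2 (-0.27, adjusted p = 0.0387). PTTG1 has near-identical copies elsewhere in the genome, and how reads shared with them were counted is not given in the sources used here.

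The ubiquitin-conjugating enzymes of the same complex were also lower at 48 h. UBE2C, which starts the ubiquitin chain, fell with log2 fold changes of -0.63 ± 0.05 in EW8 and -0.21 ± 0.05 in TC71, and UBE2S, which extends it, fell by 0.57 and 0.38 on the log2 scale. ESPL1, the separase that securin holds back, did not follow them. It was counted at 155, 167 and 151 CPM in EW8 at 0 h and at 170, 168 and 167 CPM at 48 h, so that the groups overlapped, and at 105, 109 and 103 CPM against 112, 114 and 113 CPM in TC71. Its log2 fold changes were 0.10 ± 0.04 in each line, with adjusted p = 0.0415 in EW8, a call lost in 17 alternative fits, and adjusted p = 0.0736 in TC71, which passed in 4 alternative fits (up to 0.15 with total counts alone).

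The spindle checkpoint split by gene. BUB1, the kinase that recruits other checkpoint proteins to the kinetochore, was at 174, 158 and 172 CPM in EW8 at 0 h and at 105, 103 and 98.3 CPM at 48 h, and went from 159, 150 and 149 CPM to 111, 115 and 109 CPM in TC71. It fell 1.65-fold in EW8 and 1.37-fold in TC71, with the larger fall in EW8 (difference -0.27 ± 0.06, adjusted p = 5.50e-04). BUB1B, which encodes BubR1 of the mitotic checkpoint complex, fell by 0.46 in EW8 and by 0.23 in TC71 on the log2 scale. TTK, the MPS1 kinase that starts the signal, stood at 127, 118 and 129 CPM in EW8 at 0 h and at 145, 151 and 140 CPM at 48 h. In TC71 its levels overlapped, at 81.0, 78.9 and 73.6 CPM against 72.6, 77.1 and 77.1 CPM. TTK rose in EW8 (0.22 ± 0.05, adjusted p = 1.11e-04), its value in TC71 was -0.04 ± 0.05 (adjusted p = 0.517), and the lines differed (0.26 ± 0.07, adjusted p = 0.00172).

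Of the 5 kinetochore and centromere genes, NDC80, NUF2 and SGO1 rose and CENPA and CENPF fell, in each line, counts too small to read against the 37.0% and 31.6% of all genes tested that rose and fell in EW8 or the 22.9% and 19.2% in TC71. NDC80 and NUF2 encode partners in the complex that grips the microtubule. NDC80 rose from 82.1, 73.8 and 80.4 CPM to 113, 120 and 117 CPM in EW8 and from 82.9, 82.6 and 80.3 CPM to 90.6, 99.7 and 102 CPM in TC71, without overlap. The log2 fold change of NDC80 was 0.56 ± 0.05 in EW8 and 0.25 ± 0.05 in TC71, and the lines differed by 0.31 ± 0.07 (adjusted p = 3.55e-04). NUF2 rose by 0.20 ± 0.05 and 0.13 ± 0.05, the TC71 call being lost in 9 alternative fits. SGO1, the shugoshin that protects cohesin at the centromere, was low, at 19.5, 18.6 and 20 CPM in EW8 at 0 h against 28.1, 32.0 and 31.4 CPM at 48 h, and at 15.5, 16.6 and 14.5 CPM in TC71 against 21.4, 23.3 and 21.6 CPM. It rose 1.57-fold in EW8 and 1.43-fold in TC71, the highest fitted log2 fold change of any member in TC71 (0.51 ± 0.07). That value did not differ beyond the error from the 0.51 ± 0.04 of MYBL2. CENPF, a large protein of the corona that forms late in the cycle, moved the other way, from 253, 244 and 244 CPM to 159, 183 and 170 CPM in EW8 and from 257, 246 and 237 CPM to 188, 188 and 184 CPM in TC71. CENPA, the histone H3 variant that marks the centromere, fell with CENPF, by 0.48 in EW8 and 0.39 in TC71 on the log2 scale.

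Spindle motors moved in both directions: EW8 had 6 of 13 higher and 3 lower, beside 37.0% and 31.6% of all genes tested, and TC71 had 8 higher and 2 lower, beside 22.9% and 19.2%. KIF18A (chr11:28020619-28108156, minus strand, 17 exons), a kinesin that damps the swing of chromosomes about the metaphase plate, was at 46.9, 43.3 and 46.4 CPM in EW8 at 0 h and at 112, 130 and 122 CPM at 48 h. In TC71 the values were 44.2, 39.8 and 43.5 CPM against 48.2, 54.3 and 52.1 CPM. The groups did not overlap in either line, and the EW8 libraries at 48 h stood above the other 9. KIF18A rose 2.66-fold in EW8 (log2 1.41 ± 0.06, adjusted p = 3.38e-21) and 1.21-fold in TC71 (0.28 ± 0.06, adjusted p = 2.60e-04), and the difference, 1.13 ± 0.08 (adjusted p = 2.65e-13), was past 2-fold. CENPE (chr4:103105349-103198445, minus strand, 49 exons), the kinetochore motor that brings stray chromosomes to the plate, was at 157, 148 and 155 CPM in EW8 at 0 h and at 296, 335 and 335 CPM at 48 h. Its TC71 values overlapped, at 162, 149 and 156 CPM against 152, 174 and 173 CPM. CENPE rose 2.10-fold in EW8 (1.07 ± 0.05, adjusted p = 3.48e-16), its value in TC71 was 0.09 ± 0.05 (adjusted p = 0.159), and the difference was 0.98 ± 0.07 (adjusted p = 2.60e-11). The TC71 value passed without TC71 48 h replicate 1 (0.15, adjusted p = 0.0129) and with total counts alone (0.14, adjusted p = 0.0236).

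Among the other motors that rose in both lines, KIF2C, the microtubule depolymerase MCAK that corrects faulty attachments, went from 152, 153 and 160 CPM to 257, 275 and 263 CPM in EW8 and from 193, 197 and 189 CPM to 244, 253 and 269 CPM in TC71. Its log2 fold changes were 0.77 ± 0.04 and 0.40 ± 0.04, the highest motor value in TC71. KIF20B, a motor of late cytokinesis, rose by 0.73 and 0.28, KIF15, which helps to hold the bipolar spindle open, by 0.37 and 0.26, and KIF18B, a partner of KIF2C at microtubule ends, by 0.29 and 0.25. KIF20A, which carries the chromosomal passenger complex to the central spindle, moved against them. It stood at 166, 166 and 169 CPM in EW8 at 0 h and at 93.9, 103 and 99.8 CPM at 48 h, and went from 162, 161 and 153 CPM to 92.5, 91.5 and 100 CPM in TC71. KIF20A fell by nearly the same amount in each line (-0.75 ± 0.05 and -0.74 ± 0.04), with a difference of -0.01 ± 0.06 (adjusted p = 0.897), and KIF14, another motor of cytokinesis, fell by 0.51 and 0.42. KIFC1, the minus-end motor that clusters centrosomes, fell in EW8 (-0.25 ± 0.05) and rose in TC71 (0.15 ± 0.05), a difference of -0.40 ± 0.07 (adjusted p = 7.83e-06). The TC71 call of KIFC1 was lost without TC71 0 h replicate 1 (adjusted p = 0.0654), TC71 0 h replicate 3 (0.0730) or TC71 48 h replicate 3 (0.0535). KIF11, which slides antiparallel microtubules apart, and the chromokinesin KIF22 rose in TC71, by 0.17 and 0.12, with EW8 values of -0.06 each, the call of KIF22 being lost in 4 alternative fits. In EW8 both passed as lower with upper-quartile factors, KIF11 also without EW8 0 h replicate 2 (-0.11, adjusted p = 0.0171) and KIF22 without EW8 0 h replicate 1 (-0.13, adjusted p = 0.0114). For KIF4A and KIF23 neither response passed the test, with values between -0.06 and 0.08. KIF23 passed as lower in EW8 without EW8 0 h replicate 2 (-0.10, adjusted p = 0.0487) and with upper-quartile factors, and KIF4A as higher in both lines with total counts alone.

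**Figure D3:**
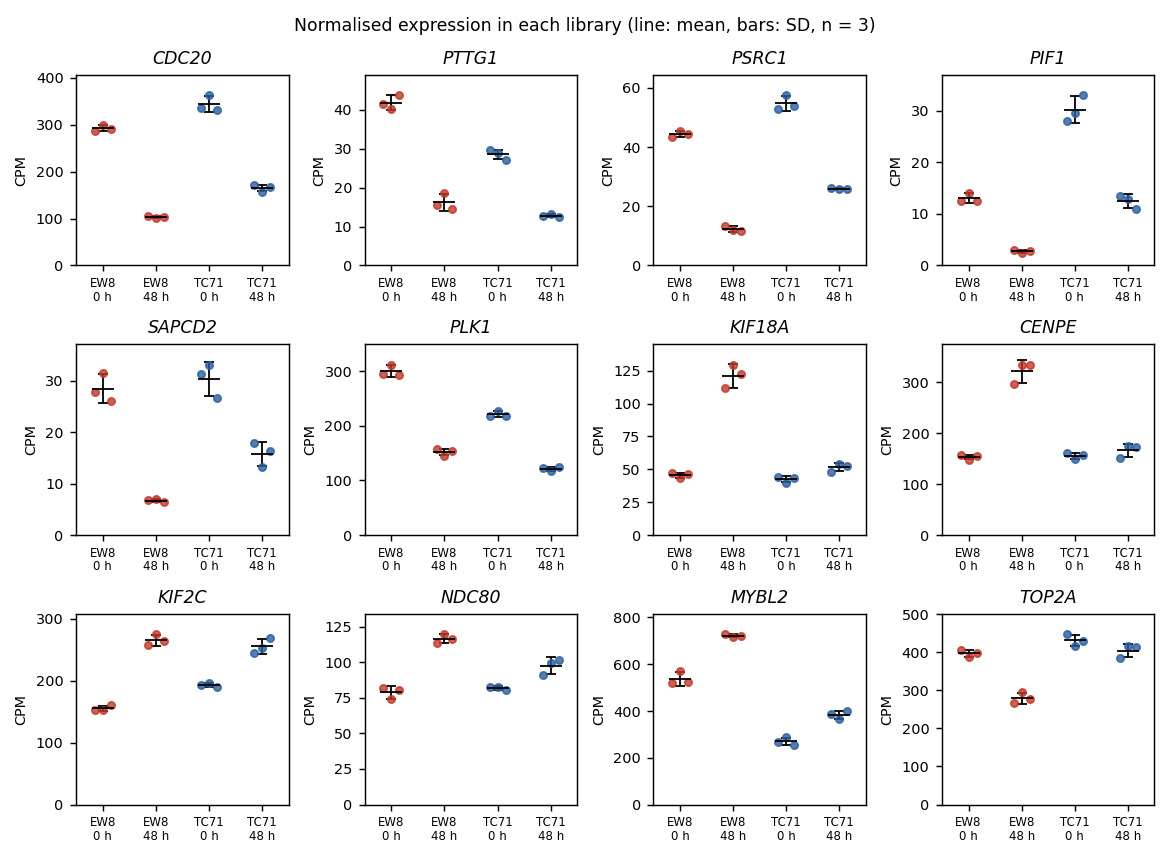
CPM in each of the 12 libraries for 12 members, with EW8 in red and TC71 in blue; each point is a library, the line is the mean and the bars are the SD over 3 libraries, and each y axis starts at 0. CDC20, PTTG1, PSRC1, PIF1, SAPCD2 and PLK1 are lower at 48 h in both lines without overlap, whereas CENPE separates at 48 h in EW8 (296 to 335 CPM) and overlaps in TC71.

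The genes of mitotic entry did not move as a block, with 4 of 7 falling and 3 rising in EW8 (31.6% and 37.0% of all genes tested) and 2 falling and 3 rising in TC71 (19.2% and 22.9%). CDC25C, a phosphatase that removes the inhibitory marks from CDK1, was at 17.2, 14.3 and 18.7 CPM in EW8 at 0 h and at 25.6, 29.1 and 26.7 CPM at 48 h, and went from 18.4, 19 and 17.4 CPM to 22.1, 26.0 and 24.9 CPM in TC71. It rose by 0.68 ± 0.08 and 0.42 ± 0.08, and CDC25B, which acts on the same marks at the centrosome, rose by 0.40 and 0.23. Cyclin B1 (CCNB1) went the other way. It was counted at 259, 241 and 268 CPM in EW8 at 0 h against 153, 159 and 150 CPM at 48 h, and at 182, 177 and 174 CPM in TC71 against 112, 120 and 120 CPM, with log2 fold changes of -0.74 ± 0.04 and -0.60 ± 0.04. CDCA3, an adaptor for the destruction of the CDK1 inhibitor WEE1, stood at 35.4, 37.9 and 34.8 CPM against 17.2, 20.8 and 17.4 CPM in EW8 and at 34.2, 35.3 and 35.4 CPM against 26.0, 25.5 and 22.6 CPM in TC71. CDCA3 fell 1.94-fold in EW8 and 1.42-fold in TC71, with a difference of -0.46 ± 0.10 (adjusted p = 2.20e-04).

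CDK1 and its cyclins A2 and B2 differed between the lines. CDK1 fell in EW8, from 166, 162 and 175 CPM to 124, 132 and 124 CPM, and rose in TC71, from 207, 205 and 215 CPM to 220, 245 and 232 CPM. Its difference was -0.56 ± 0.06 (adjusted p = 3.53e-09), and the TC71 call was lost without TC71 replicate 2 at 48 h (0.11, adjusted p = 0.0554). CCNA2 fell in EW8 (-0.43 ± 0.04), stood at 0.10 ± 0.04 in TC71 (adjusted p = 0.052, passing in 7 alternative fits), and differed by -0.53 ± 0.06. CCNB2 was opposite to CCNB1 in EW8: it rose by 0.19 ± 0.05, its TC71 value was -0.11 ± 0.05 (adjusted p = 0.0678, passing in 4 alternative fits), and the lines differed by 0.30 ± 0.07.

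Of the mitotic kinases, PLK1 fell most. PLK1 (chr16:23677656-23690367, plus strand, 10 exons), the kinase that drives centrosome maturation and entry into mitosis, stood at 294, 312 and 293 CPM in EW8 at 0 h and at 157, 145 and 154 CPM at 48 h, and went from 219, 227 and 218 CPM to 123, 117 and 124 CPM in TC71. It fell 1.98-fold in EW8 and 1.82-fold in TC71, just under a 2-fold change, and the difference was -0.12 ± 0.06 (adjusted p = 0.104). It passed with the filter of at least 10 counts in every library (-0.14, adjusted p = 0.0467). NEK2, which splits the centrosomes, rose in EW8, from 50.5, 46.6 and 49.5 CPM to 70.4, 73.3 and 69.4 CPM. In TC71 NEK2 was at 56.8, 54.0 and 55.6 CPM against 52.7, 53.7 and 51.3 CPM (-0.08 ± 0.05, adjusted p = 0.208), and the lines differed by 0.62 ± 0.07. Aurora A (AURKA) fell in TC71 (-0.24 ± 0.05) and stood at -0.05 ± 0.05 in EW8 (adjusted p = 0.33), where it passed as lower without EW8 0 h replicate 2 (-0.12, adjusted p = 0.0270).

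In the chromosomal passenger complex, Aurora B (AURKB), its kinase, was at 59.1, 66.7 and 64.2 CPM against 63.6, 63.8 and 60.4 CPM in EW8, overlapping throughout, and rose in TC71 from 62.8, 63.6 and 61.6 CPM to 66.7, 73.4 and 73.3 CPM (0.18 ± 0.05). Survivin (BIRC5), which docks the complex on chromosomes, fell from 87.6, 87.9 and 91.6 CPM to 64.7, 68.7 and 65.1 CPM in EW8 and from 89.5, 91.5 and 84.2 CPM to 76.2, 83.3 and 83.4 CPM in TC71. The TC71 fall was small (-0.12 ± 0.05, adjusted p = 0.0353) and was lost in 8 alternative fits. Borealin (CDCA8) fell by 0.32 in each line, from 122, 125 and 124 CPM to 94.2, 100 and 102 CPM in EW8 and from 156, 156 and 156 CPM to 125, 122 and 128 CPM in TC71.

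Spindle assembly genes were led by PSRC1 (chr1:109279556-109283186, minus strand, 8 exons), a microtubule-associated protein of chromosome congression. Its levels were 43.5, 45.6 and 44.3 CPM in EW8 at 0 h against 13.3, 12.1 and 11.6 CPM at 48 h, and 52.9, 57.6 and 53.9 CPM in TC71 against 26.1, 25.8 and 25.9 CPM. PSRC1 fell 3.61-fold in EW8 (-1.85 ± 0.07, adjusted p = 1.07e-22) and 2.11-fold in TC71 (-1.08 ± 0.06, adjusted p = 4.47e-17), a difference of -0.78 ± 0.09 (adjusted p = 5.83e-09). Smaller falls in both lines were seen for DLGAP5 (-0.48 and -0.45), HMMR (-0.41 and -0.43), ASPM (-0.16 and -0.23) and FAM83D (-0.12 and -0.15), which organise spindle fibres and poles. With scaling by total counts alone, FAM83D in EW8 was at 0.01 and ASPM at -0.03 (adjusted p = 0.534). The fall of FAM83D was lost in 4 further alternative fits in EW8 and in 6 in TC71. TPX2, the activator of Aurora A on the spindle, rose in EW8 from 462, 457 and 484 CPM to 562, 595 and 592 CPM, and stood at 318, 322 and 318 CPM against 294, 309 and 317 CPM in TC71, with a difference of 0.37 ± 0.05 (adjusted p = 3.75e-07). NUSAP1, which bundles microtubules near chromosomes, rose from 247, 240 and 250 CPM to 269, 284 and 281 CPM in EW8 and from 236, 231 and 231 CPM to 261, 283 and 283 CPM in TC71. GTSE1, a microtubule plus-end protein, stood at 0.02 ± 0.05 in EW8 (0.15 and called with total counts alone) and 0.13 ± 0.05 in TC71 (adjusted p = 0.0434, lost in 10 alternative fits).

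All 4 cytokinesis genes fell in EW8, PRC1 not with scaling by total counts alone (-0.03, adjusted p = 0.480), and 1 fell and 2 rose in TC71. Of all genes tested, 31.6% fell in EW8, and 19.2% fell and 22.9% rose in TC71. Anillin (ANLN), the scaffold of the contractile ring, fell in EW8 from 175, 156 and 167 CPM to 113, 122 and 118 CPM and overlapped in TC71, at 100, 95.2 and 98.7 CPM against 98.0, 94.3 and 97.1 CPM. ECT2, which activates RhoA at the cell equator, fell alike in each line, from 188, 171 and 182 CPM to 143, 155 and 153 CPM in EW8 and from 152, 148 and 151 CPM to 122, 128 and 129 CPM in TC71. The abscission protein CEP55 fell in EW8 from 63.6, 58.8 and 66.0 CPM to 53.4, 52.5 and 50.2 CPM and rose in TC71 from 59.1, 55.5 and 56.3 CPM to 60.5, 63.6 and 67.3 CPM. PRC1, which bundles the central spindle, did the same, from 287, 287 and 291 CPM to 257, 257 and 264 CPM in EW8 and from 258, 256 and 273 CPM to 274, 285 and 287 CPM in TC71. The rises in TC71 were small (0.16 ± 0.05 for CEP55 and 0.10 ± 0.04 for PRC1) and each was lost in some alternative fits, 2 and 8 of them. The line differences were -0.47 ± 0.07 for ANLN, -0.44 ± 0.08 for CEP55, -0.26 ± 0.05 for PRC1 and -0.01 ± 0.06 for ECT2.

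Neither of the transcription factors was called lower at 48 h in either line. MYBL2 rose from 519, 572 and 523 CPM to 729, 715 and 722 CPM in EW8 and from 266, 287 and 256 CPM to 386, 364 and 399 CPM in TC71, log2 fold changes of 0.43 ± 0.04 and 0.51 ± 0.04. FOXM1 overlapped in EW8, at 142, 153 and 143 CPM against 149, 144 and 145 CPM (called higher with total counts alone, 0.13), and rose in TC71 from 97.5, 98.9 and 90.8 CPM to 121, 120 and 130 CPM. The lines differed for FOXM1 (-0.37 ± 0.06, adjusted p = 1.22e-05) and not beyond the error for MYBL2 (-0.08 ± 0.06, adjusted p = 0.284). For chromosome structure, topoisomerase TOP2A fell in EW8 from 406, 388 and 399 CPM to 266, 294 and 276 CPM, and stood at 448, 418 and 429 CPM against 384, 417 and 413 CPM in TC71 (-0.09 ± 0.04, adjusted p = 0.063, passing in 6 alternative fits). The proliferation marker MKI67 fell in both lines, from 390, 408 and 361 CPM to 290, 338 and 322 CPM in EW8 and from 416, 407 and 386 CPM to 354, 344 and 350 CPM in TC71.

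PIF1 and SAPCD2 had the lowest log2 fold changes of all members in EW8. PIF1 (chr15:64815632-64825668, minus strand, 13 exons) encodes a helicase whose level is highest late in the cycle. It was counted at 12.5, 14.1 and 12.5 CPM in EW8 at 0 h and at 2.98, 2.46 and 2.84 CPM at 48 h, and went from 28.1, 29.6 and 33.1 CPM to 13.5, 12.9 and 11 CPM in TC71. PIF1 fell 4.70-fold in EW8 (-2.23 ± 0.12, adjusted p = 2.37e-17) and 2.44-fold in TC71 (-1.29 ± 0.08, adjusted p = 6.49e-15), a difference of -0.95 ± 0.16 (adjusted p = 5.02e-06). SAPCD2 (chr9:137062127-137070557, minus strand, 6 exons), a regulator of spindle orientation, was at 27.9, 31.6 and 26.0 CPM in EW8 at 0 h and at 6.86, 6.92 and 6.36 CPM at 48 h. In TC71 it was at 31.4, 33.2 and 26.8 CPM against 17.8, 13.3 and 16.4 CPM. SAPCD2 fell 4.21-fold in EW8 (-2.07 ± 0.12, adjusted p = 2.12e-13) and 1.92-fold in TC71 (-0.94 ± 0.09, adjusted p = 3.67e-08), and the difference, -1.14 ± 0.15 (adjusted p = 1.83e-06), was past 2-fold. By annotation BUB1B, CENPA, NUSAP1 and PRC1 share exon bases with another gene on the same strand. Such overlap with a gene on the other strand was found for 18 members: KIF2C, KIF4A, KIF20A, KIF22, KIF23, KIFC1, CCNA2, CDC25C, CDCA3, PLK1, NUF2, SGO1, NUSAP1, HMMR, ANLN, PRC1, FOXM1 and SAPCD2. The values of these genes are uncertain to that extent, since the strand setting used for counting is not given in the sources used here.

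The test of the difference between the lines called 31 members, 11 with the higher and 20 with the lower response in EW8, where 25.7% and 22.4% of all genes tested were so called. Past 2-fold there was 1 member in each direction, KIF18A and SAPCD2, against 7.28% and 0.981% of genes tested. The median difference was -0.08, against 0.04 over all genes tested. In the EW8 and TC71 scatter, the members that differed most lay at both ends, with KIF18A and CENPE above the line of equal response and SAPCD2, PIF1 and PSRC1 below it.

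**Figure D4:**
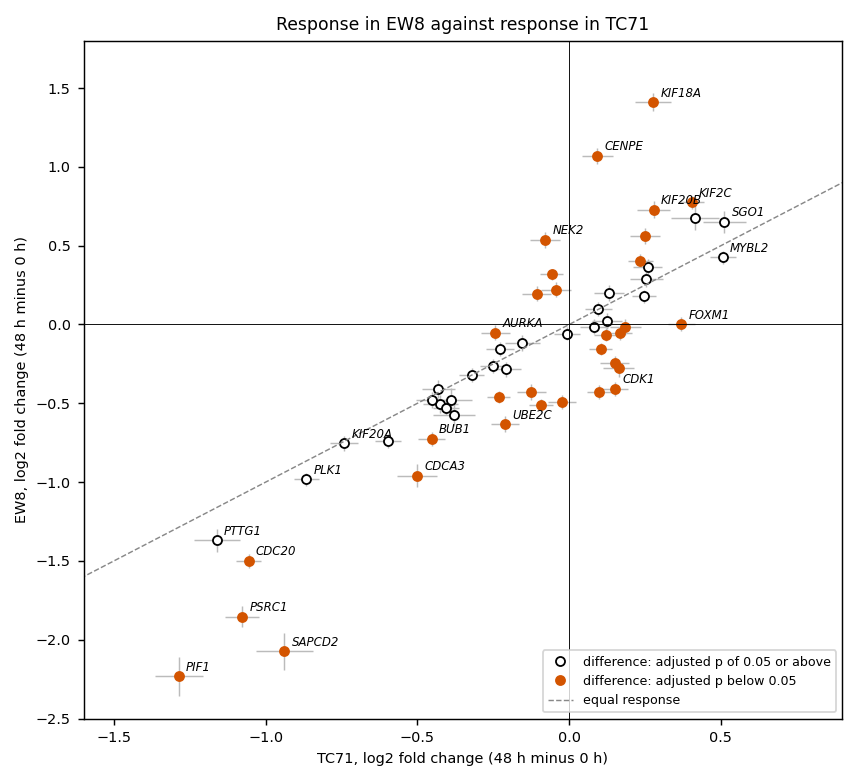
Each point is 1 of the 57 members, with its log2 fold change in TC71 on the x axis and in EW8 on the y axis and bars of 1 standard error; filled points passed the test of the difference between the lines, and the dashed line marks equal responses. PLK1 (-0.98 in EW8 and -0.87 in TC71) and PTTG1 (-1.37 and -1.16) lie near that line as open points, while KIF18A (1.41 and 0.28) and SAPCD2 (-2.07 and -0.94) lie far from it.

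At 0 h, before the drug was withdrawn, levels per kilobase of canonical transcript were led in EW8 by MYBL2 (202 ± 11.2 CPM per kb, SD, n = 3), CDC20 (178 ± 4.25), PLK1 (139 ± 4.84) and TPX2 (135 ± 4.16), of which PLK1 and TPX2 lay within 1 SD of each other. In TC71 the order began with CDC20 (208 ± 10.5 CPM per kb), UBE2C (151 ± 1.60) and CDK1 (111 ± 2.79), followed by NUSAP1 (103 ± 1.25), PLK1 (102 ± 2.21) and MYBL2 (101 ± 5.95), which did not differ beyond their spread. The lowest were PIF1 (4.85 ± 0.355), SGO1 (6.3 ± 0.235) and SAPCD2 (7.48 ± 0.748) in EW8 and SGO1 (5.06 ± 0.341), KIF14 (7.22 ± 0.440) and SAPCD2 (7.98 ± 0.868) in TC71. EW8 had the higher level at 0 h for 25 members and the lower for 9, where 32.8% and 32.9% of genes tested were so called (65.7% in either direction). This split depended on the scaling: with total counts alone it was 21 higher and 24 lower, and with upper-quartile factors 21 and 15. MYBL2 was higher in EW8 by 0.995 ± 0.04 and FAM83D by 0.97 ± 0.05 on the log2 scale, and PIF1 was lower (-1.22 ± 0.08), the 1 difference past 2-fold, where 4.77% of genes tested were higher and 11.9% lower by that much. Over the members, the response bore little relation to transcript length (Spearman rho 0.18 in EW8 and 0.15 in TC71) or to the level at 0 h (-0.08 and -0.00), as descriptions across 57 genes.

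The same contrasts were read in related genes outside the set, to be set against the shares of all genes tested, which were 37.0% higher and 31.6% lower for EW8 and 22.9% higher and 19.2% lower for TC71. Of 33 other kinetochore and centromere genes, 11 rose and 13 fell in EW8, from OIP5 (-0.81) to CENPC (0.88), and 22 rose and 2 fell in TC71, with medians of -0.03 and 0.27. Of 31 other checkpoint and anaphase genes, among them the subunits of the anaphase-promoting complex and cohesin, 7 rose and 17 fell in EW8, from SMC3 (-0.82) to MAD1L1 (0.73), and 6 rose and 9 fell in TC71, with medians of -0.24 and -0.05. The condensin subunits gave 4 rising and 3 falling of 8 in EW8, from NCAPH (-0.43) to NCAPG (0.60), and 6 rising and 0 falling in TC71. Of 43 other genes of the spindle, mitotic entry and cytokinesis that passed the filter on low counts, 9 rose and 26 fell in EW8, from the cyclin gene CCNF (-1.04) to KIF24 (1.69), and 9 rose and 18 fell in TC71. G1/S and replication genes behaved otherwise between the lines. In EW8 21 of 48 rose and 21 fell, from MSH6 (-1.04) to E2F7 (0.98), with a median of 0.01, whereas in TC71 44 rose and 1 fell, with a median of 0.37, and the difference between the lines was called lower in EW8 for 41 of the 48, against 22.4% of genes tested. It was also called lower for 17 of the 33 kinetochore and centromere genes (1 higher), 14 of the 31 checkpoint and anaphase genes (4 higher) and 5 of the 8 condensin subunits (2 higher). Of the 43 genes of the spindle, mitotic entry and cytokinesis, 19 were called lower and 10 higher. For the 15 subunits of DREAM, MuvB and NF-Y these counts were 6 and 4. The subunits of DREAM, MuvB and NF-Y gave 5 rising and 6 falling of 15 in EW8, from RBBP4 (-0.56) to LIN37 (0.85), and 3 rising and 3 falling in TC71.

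The promoter table held 50 of the 57 members; AURKA, BIRC5, FAM83D, FOXM1, TPX2, TTK and UBE2C were not matched. Over windows of 300 bases, 250 before and 50 after the start, 38 of 50 member promoters (76.0%) held the homology region (TTTGAA or TTCGAA on either strand), against 11.4% of 10921 promoters of genes tested and 16.6% of all 27305 promoters. CCAAT on either strand was found in 40 (80%), against 36.6% and 35.7%, and both words in 33 (66.0%), against 4.80% and 6.58%. The E2F words TTTCCCGC and TTTGGCGC, searched on both strands, were found in 3 of 50, against 3.59% of genes tested. By response, 20 of the 21 matched members that fell in both lines held CCAAT (95.2%) and 14 held 2 or more (66.7%). Of promoters of genes tested, 13.7% held 2 or more. Of the 12 that rose in both lines, 5 held CCAAT (41.7%) and 3 held 2 or more, the former near the 36.6% of genes tested. Of the 17 other matched members, 15 held CCAAT (88.2%) and 4 held 2 or more (23.5%), so that a high share with CCAAT was not particular to members that fell. The homology region was found in 17 of 21 (81.0%) and 8 of 12 (66.7%). With the window ended at the start, it was found in 61.9% and 16.7%, in 70.6% of the other members and in 9.83% of genes tested. Among members that fell, the match lay after the start in BUB1, KIF14 and CENPF and across it in CDCA3. It lay after the start in KIFC1 among the others. Among members that rose, it lay after the start in KIF18B, KIF20B, NUF2 and NUSAP1, across it in SGO1, and both across and after it in NDC80. For matches from 60 bases before the start onward, a window chosen after seeing the data, shares were 71.4%, 66.7% and 64.7% (other members), against 3.46% of genes tested. The groups were formed with the responses known, and no test was made between them. A single annotated start stood for each gene, and matches at other starts were not searched.

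**Figure D5:**
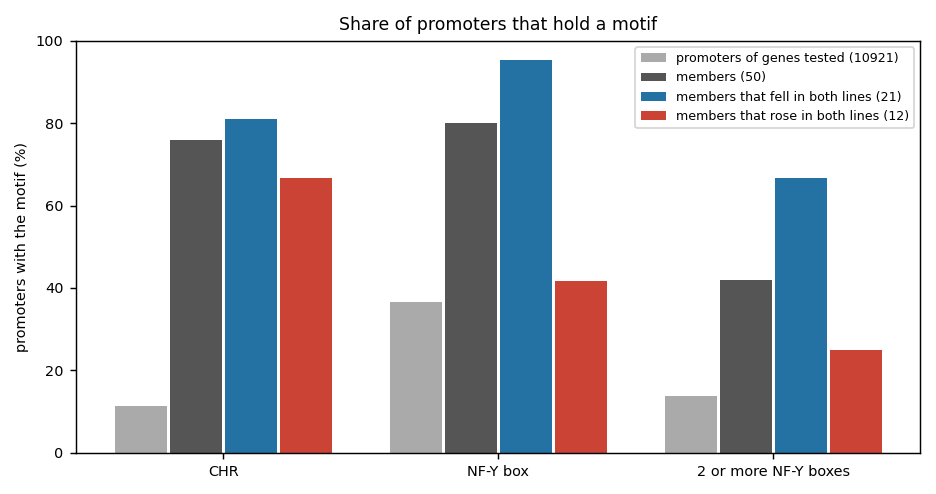
Bars give the percentage of promoters that held the homology region (CHR), CCAAT on either strand, or 2 or more CCAAT matches. They are drawn for 10921 promoters of genes tested, 50 members, 21 members that fell in both lines and 12 that rose in both. The label NF-Y box stands for a CCAAT match, not a site of binding. CCAAT stood at 95.2% in members that fell and 41.7% in members that rose, beside 36.6% in genes tested. The 17 other matched members, at 88.2%, are not drawn apart.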

How the data were processed

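Polyadenylated RNA of 12 libraries (TruSeq Stranded mRNA) was measured. The authors checked reads with FastQC and aligned them to hg38 with STAR; tool versions, the counting tool, its annotation and strand setting are not given in the sources used here. The deposited values are raw counts per gene, with no normalization, in 1 column per library, and 0 columns were left unused. Here, genes were filtered with filterByExpr of edgeR 4.0.16 (minimum count 10, minimum total count 15), leaving 16515, scaled with TMM factors and fitted over 4 groups with a robust quasi-likelihood model in R 4.3.3; p-values were Benjamini-Hochberg adjusted over all genes tested, and a call needed an adjusted p below 0.05. The biological coefficient of variation was 4.17%. The 48 h libraries were set against those at 0 h within a line; further contrasts were the difference of these responses and EW8 minus TC71 at 0 h. CPM are TMM-scaled, except for marker genes, which were scaled by library totals alone; levels between genes are per kilobase of the GENCODE 44 canonical transcript, in which all 57 members matched.

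Members and lists were chosen with earlier results of these data known. Library values are given for the members with the lowest and highest response in each role and those past 2-fold; NDC80 and CDK1 were added after their values were seen. Alternatives were DESeq2 1.42.0 size factors or Wald test, total counts, upper-quartile factors, other count filters, each line alone, a replicate block, a fit that was not robust, an adjusted p below 0.01, and each library left out. On simulated counts for EW8 over 16133 genes, 85 of 100 changes of 0.5 and 96 of 100 changes of 1 (log2) were recovered, with 9 unchanged genes called. The simulation fixed the spread, gave the groups 1 shared mean per gene and changed few genes, equally up and down. These rates therefore need not hold for the libraries, where many more genes were called. Promoters were those of RefSeq on GRCh38.p14.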

Additional observations from a re-analysis of the deposited data

Results flagged for a closer look

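For 31 members the response to 48 h without doxycycline differed between the lines by the test of the difference itself, at an adjusted p below 0.05 over all genes tested, where 48.1% of those genes were so called. The values here are log2 differences, the EW8 response minus the TC71 response. Among the motors these were 0.37 for KIF2C, -0.22 for KIF11, 1.13 for KIF18A, 0.45 for KIF20B, -0.19 for KIF22, -0.40 for KIFC1 and 0.98 for CENPE. Among genes of mitotic entry they were 0.30 for CCNB2, -0.53 for CCNA2, -0.56 for CDK1, 0.17 for CDC25B and -0.46 for CDCA3. The kinases gave 0.19 for AURKA and 0.62 for NEK2, the passenger complex -0.20 for AURKB and -0.30 for BIRC5, and the checkpoint -0.27 for BUB1, -0.23 for BUB1B and 0.26 for TTK. NDC80 of the kinetochore was at 0.31, CDC20 and UBE2C of anaphase at -0.44 and -0.42, and TPX2 and PSRC1 of spindle assembly at 0.37 and -0.78. The cytokinesis genes ANLN, CEP55 and PRC1 were at -0.47, -0.44 and -0.26. Calls were lost in 5 alternative fits for AURKA (down to 0.12 without EW8 0 h replicate 2), 6 for AURKB, 6 for CDC25B and 1 for KIF22. FOXM1 was at -0.37, TOP2A at -0.42, PIF1 at -0.95 and SAPCD2 at -1.14.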

How the results depend on the processing

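Of 4617 values of single members under the alternatives, 4420 kept their side of the threshold, 115 of them with a change of sign while uncalled, 84 passed it newly, 106 lost it and 7 reversed. Those 7 changed sign and were called in only 1 of the 2 fits compared, so no call became a call in the other direction. The 7 reversed with total counts alone, to 0.11 for KIF4A and 0.0062 for FAM83D in EW8, and at 0 h to -0.13 for CENPF, -0.13 for HMMR, -0.12 for KIF22, -0.12 for AURKB and -0.12 for BIRC5; that scaling moved the median of all genes by 0.13 in EW8 and -0.13 at 0 h. With it the members' medians were -0.032 in EW8, -0.0070 in TC71, -0.0086 for the difference and -0.057 at 0 h, CENPE joined KIF18A past 2-fold to make 2 differences, and 24 members were lower in EW8 at 0 h. With upper-quartile factors the EW8 median was -0.20, the 0 h median -0.0030 and 15 members were lower at 0 h. At an adjusted p below 0.01, which is not among the 4617 values, ESPL1 and FAM83D were not called in EW8. In TC71 the rises of KIF22, KIFC1, NUF2, CEP55, PRC1 and GTSE1 and the falls of BIRC5 and FAM83D were not called at that threshold. MYBL2 was the 1 member past 2-fold higher at 0 h with DESeq2 size factors, the DESeq2 Wald test or no filter on low counts. The homology region before the start was found in 54.0% of members, 61.9% of those that fell in both lines and 16.7% of those that rose in both. Near the start, a window chosen after seeing the data, the shares were 68.0%, 71.4% and 66.7%. Promoters of genes tested held it in 9.83% and 3.46%.

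With 1 library left out, the EW8 median ran from -0.23 to -0.15, the TC71 median from -0.076 to -0.033 (the latter without TC71 48 h replicate 1), the difference median from -0.12 to -0.048 (the latter without EW8 48 h replicate 1), members that rose in TC71 from 16 to 23, differences past 2-fold from 1 to 2 higher and 1 to 2 lower, and members past 2-fold higher at 0 h from 0 to 1. The count of 2 higher came without EW8 48 h replicate 1, TC71 0 h replicate 2 or TC71 48 h replicate 2 or 3; that of 2 lower without EW8 48 h replicate 1, TC71 0 h replicate 3 or TC71 48 h replicate 3. The 1 at 0 h came without EW8 0 h replicate 1 or 3 or TC71 0 h replicate 2 or 3. The cause was not tested. Same-numbered libraries of a line correlated in their deviations at -0.41 to 0.02, so the numbers were not taken to pair them; with a replicate block 17 members rose and 30 fell in EW8, 17 and 23 in TC71, and 10 and 19 differed.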
